A study of Mus musculus with 8 samples.

Results

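The imprinted Dlk1-Dio3 domain of mouse chromosome 12 and the genes beside it were read probe set by probe set in 8 induced pluripotent stem (iPS) cell clones. The members were every probe set annotated to a single symbol out of 10 listed genes, which gave 37 of the array's 45037 noncontrol probe sets. They comprised 17 probe sets of the maternally expressed RNAs Meg3, Rian and Mirg, 2 of the paternally expressed Dlk1, and 18 of the flanking genes Degs2, Yy1, Slc25a29, Wdr25 and Ppp2r5c. Begain, the listed gene next to Dlk1, had no probe set of its own in the annotation used here, so 9 of the 10 genes were measured. The clones came from embryonic fibroblasts of Col-OKSM mice, in which doxycycline induces Oct4, Sox2, Klf4 and cMyc. Of the 8 clones, 4 were derived with ascorbic acid (vitamin C) in serum and LIF medium and 4 in the same medium without it. All clones shared the transgene, doxycycline and irradiated fibroblast feeders, which were reduced by preplating before RNA was taken. Each clone was hybridised to its own Affymetrix mouse expression array. The labels call the clones of a group biological replicates without naming separate embryos or cultures, and the spread behind each p-value is that among these 8 clones, which may be technical in part.

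Imprinted genes are transcribed from the copy inherited from only one parent, a choice set by DNA methylation laid down in the germ line. In this domain the methylated paternal copy expresses the protein-coding genes Dlk1, Rtl1 and Dio3. The unmethylated maternal copy expresses a series of noncoding RNAs from the same strand, beginning at Meg3 (also called Gtl2) and running through Rian, which hosts small nucleolar RNAs, to Mirg, which hosts microRNAs. In mouse iPS clones the maternal RNAs are known to be silenced in many lines, and this silencing has been tied to a reduced capacity to form an entire animal. The flanking genes measured here serve as neighbours outside the imprint.

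The promoter of Meg3 is shown first because transcription of the maternal RNAs is thought to begin there, followed by that of Dlk1 for comparison. Both windows run from 250 bases before to 50 bases after an annotated start (RefSeq, GRCm38.p6): chr12:109540746-109541045, plus strand, for Meg3 and chr12:109452573-109452872, plus strand, for Dlk1. Capitals mark matches on either strand to the cyclic AMP response element TGACGTCA, the TATA box TATAAA, a YY1 motif ATGGCGGC and the ZFP57 motif TGCCGC.
Meg3 promoter: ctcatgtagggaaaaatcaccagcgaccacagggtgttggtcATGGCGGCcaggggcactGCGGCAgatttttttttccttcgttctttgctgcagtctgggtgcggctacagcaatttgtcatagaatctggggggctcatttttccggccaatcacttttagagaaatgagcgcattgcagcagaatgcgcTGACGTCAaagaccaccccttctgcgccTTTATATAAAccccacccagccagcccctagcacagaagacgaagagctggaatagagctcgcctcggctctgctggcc
Dlk1 promoter: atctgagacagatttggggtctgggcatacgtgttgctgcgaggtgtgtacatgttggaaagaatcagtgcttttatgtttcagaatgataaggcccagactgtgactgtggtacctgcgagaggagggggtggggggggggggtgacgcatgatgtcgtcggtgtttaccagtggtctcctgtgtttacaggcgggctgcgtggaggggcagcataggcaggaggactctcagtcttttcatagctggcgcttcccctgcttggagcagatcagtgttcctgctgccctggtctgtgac
The Meg3 window held the response element 57 bases before the start and TATA letters on both strands, overlapping each other, 25 and 29 bases before it. It also held a YY1 match 208 bases and a ZFP57 match 190 bases before the start. A second annotated Meg3 start, with the window chr12:109545148-109545447, held no match and 1 CpG site. The Dlk1 window held no match to any of these letters either. Matches were not particular to Meg3: the ZFP57 letters were found once in the window of Slc25a29 and 3 times in a window of Ppp2r5c. The YY1 letters were found at 2 sites near Begain, both lying in each of 2 overlapping windows. Over all 32851 promoter windows of the RefSeq table, 1.79% held the response element, 13.6% the TATA letters, 2.24% the YY1 letters and 11.6% the ZFP57 letters. The Meg3 window shown held 13 CpG sites and the Dlk1 window 9, against a median of 7 per window. Windows of the flanking Yy1, Slc25a29 and Degs2 held 42, 32 and 21. A match describes these letters and not a bound site.

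The maternal RNAs also carry microRNAs, which the array did not read in mature form. RefSeq placed 3 mature sequences within Meg3, 6 within Rian and 19 within Mirg, and 78 more on the same strand between Meg3 and Dio3. Examples from within each host are shown with pairs that share a seed, with the seed (bases 2 to 8) in capitals.
miR-770-5p (in Meg3): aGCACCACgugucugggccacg
miR-370-3p (in Rian): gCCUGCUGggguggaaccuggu
miR-370-5p (in Rian, sharing its seed with the next): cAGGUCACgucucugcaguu
miR-1193-3p (between Rian and Mirg): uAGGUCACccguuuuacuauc
miR-154-3p (in Mirg): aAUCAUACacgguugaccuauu
miR-377-3p (in Mirg): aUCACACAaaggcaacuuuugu
miR-409-3p (in Mirg): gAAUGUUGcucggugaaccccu
miR-410-3p (in Mirg): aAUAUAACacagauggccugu
miR-379-5p (between Rian and Mirg, sharing its seed with the next): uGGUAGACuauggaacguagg
miR-1193-5p (between Rian and Mirg): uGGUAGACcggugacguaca
Of the 106 mature sequences, the seed AGGUCAC was shared by miR-370-5p and miR-1193-3p, and GGUAGAC by miR-379-5p and miR-1193-5p. These pairs are examples, and other seeds were shared too, such as AUGUAAC by miR-379-3p and miR-411-3p.

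The arrays were alike in level and quality. Median signals lay between 134 and 156, the 3' to 5' ratio of actin signal between 1.14 and 1.28, and correlations of log2 signals between arrays at 0.976 to 0.982. Pluripotency markers were high in every clone: none of the 10, among them Pou5f1, Nanog and Sox2, read below 2170. None of those 10 passed the test in limma over all probe sets, and all 10 leaned lower with ascorbic acid, by -0.25 (Dppa5a; Pou5f1 -0.14) to -0.05 log2. Of 8 B and blood cell markers 5 were tested and 0 passed in limma (2 at an unadjusted p under 0.05), with Cd74 at -0.27 and Ebf1 at 0.43 log2. Over all tested probe sets 0.0481% passed and 5.55% had an unadjusted limma p under 0.05.

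The maternal RNAs rose together in the clones derived with ascorbic acid, and their probe sets made up most of those on the array that passed the test. Of 16 tested maternal probe sets all 16 were higher with ascorbic acid, where 46.6% of all tested probe sets were higher. Of these 9 passed the test (limma, Benjamini-Hochberg over 27022 probe sets, adjusted p under 0.05): 6 of Meg3, 2 of Rian and 1 of Mirg. Among all tested probe sets 13 passed, which is 0.0481%, and 12 of them were higher with ascorbic acid (0.0444%). The 9 maternal probe sets thus stood among 13, and their rises ran from 1.62 to 3.01 log2. The other 4 were Tcf15, Mcts2, Shmt1 and 1431094_at, to which the annotation gives no symbol. The members held 7 of the 8 tested probe sets that were over 2 log2 higher with ascorbic acid.

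**Figure D1:**
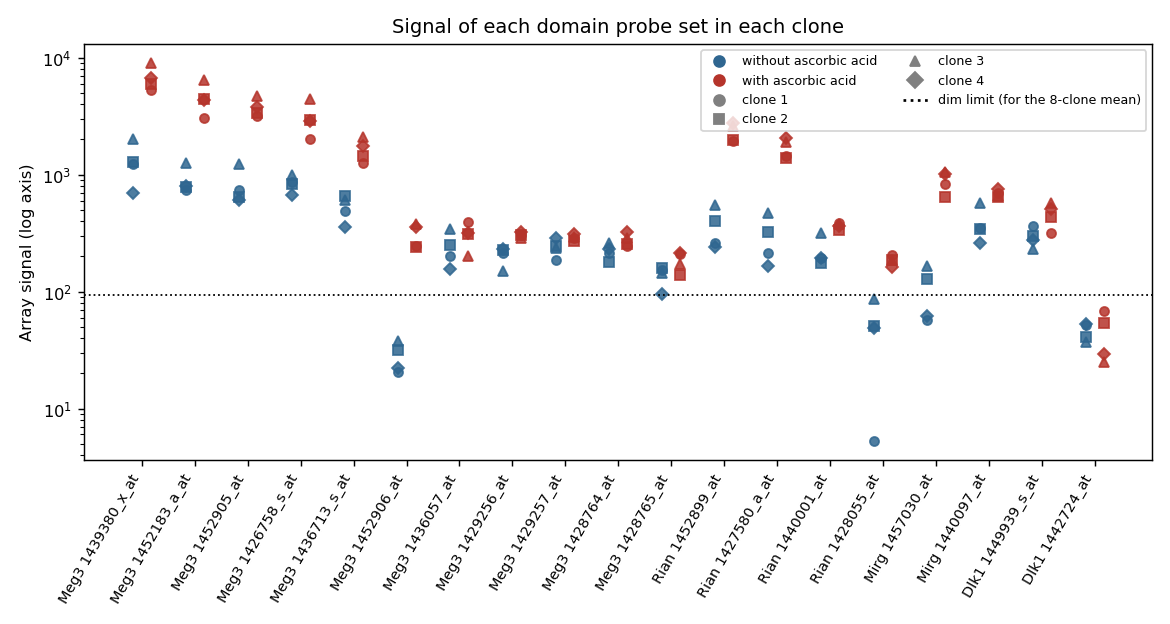
Array signal (log axis) of each probe set of Meg3, Rian, Mirg and Dlk1 in the 8 clones, with clone numbers as symbols, clones without ascorbic acid in blue and with it in red, and the limit below which a probe set's mean was too dim to test as a dotted line. Meg3 1452906_at sits between 20.7 and 37.4 without and between 242 and 381 with ascorbic acid, while Dlk1 1449939_s_at overlaps between groups.

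Meg3 was read by 11 probe sets, and these fell into 2 kinds. The smallest p on the array belonged to 1452906_at. It read 246, 242, 381 and 359 in clones 1 to 4 with ascorbic acid and 20.7, 31.5, 37.4 and 22.4 in clones 1 to 4 without. The groups did not overlap. Its mean without ascorbic acid, 28.0, was under the dim limit of 93.7, so it was tested only because of its signal in the other group, and the size of its difference depends on the constant added before log2. That difference was 2.87 ± 0.21 with 16 added (SE; limma, adjusted p = 0.000434) and 1.995 with 64 added (limma, adjusted p = 0.000308). It was called without the limit too (limma, adjusted p = 0.00324), and 8 maternal probe sets were called besides it.

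The most intense Meg3 probe set, 1439380_x_at, read 5252, 5946, 9036 and 6658 with ascorbic acid and 1230, 1288, 2000 and 699 without. Every clone with ascorbic acid was above every clone without. The suffix _x_at marks probe sets that can read several transcripts, and 1452905_at, which has no such suffix, gave nearly the same picture. It read 3162, 3374, 4684 and 3817 with ascorbic acid and 737, 648, 1228 and 609 without. Its log2 difference was 2.24 ± 0.19 (SE; limma, adjusted p = 0.000577). The remaining Meg3 probe sets that passed were 1452183_a_at at 2.33 ± 0.21, 1426758_s_at at 1.82 ± 0.19 and 1436713_s_at at 1.62 ± 0.19 log2 (SE), each with no overlap between groups.

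The other 5 Meg3 probe sets were higher by 0.29 to 0.56 log2 and did not pass (limma, adjusted p 0.607 to 0.882). The largest of these differences was that of 1429256_at. It read 305, 305, 287 and 326 with ascorbic acid and 215, 225, 149 and 230 without, with no overlap. The most scattered, 1436057_at, read 394, 313, 202 and 319 with and 200, 252, 346 and 157 without, and its groups overlapped. The annotation ties 1428764_at, 1428765_at and the strongly changed 1452905_at to the same expressed sequence tag, so probe sets of the same source differed in size by 0.31 ± 0.14, 0.38 ± 0.19 and 2.24 ± 0.19 log2 (SE).

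Rian rose with Meg3. Its most intense probe set, 1452899_at, read 1944, 1987, 2594 and 2750 in clones 1 to 4 with ascorbic acid and 259, 401, 553 and 243 without. The log2 difference of 2.68 ± 0.22 (SE; limma, adjusted p = 0.00057) ranked 3 of 27022 by size on the same scale. A second probe set, 1427580_a_at, read 1448, 1388, 1886 and 2058 with and 213, 326, 466 and 167 without. It rose by 2.55 ± 0.25 log2 (SE; limma, adjusted p = 0.00118), and in both probe sets clone 3 was the highest without ascorbic acid and clone 4 the lowest.

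The remaining Rian probe sets pointed the same way. On 1440001_at the clones read 389, 337, 376 and 362 with ascorbic acid and 194, 177, 314 and 194 without, a log2 difference of 0.73 ± 0.16 (SE; limma, adjusted p = 0.472). Clone 3 without ascorbic acid stood apart there, and leaving it out gave a difference of 0.90 log2 that passed (limma, adjusted p = 0.0239). With any other single clone left out the probe set did not pass (limma, adjusted p 0.488 to 0.865). The fourth, 1428055_at, lay below the dim limit and was not tested. It read 204, 186, 185 and 161 with ascorbic acid and 5.30, 50.4, 86.7 and 48.8 without, with no overlap.

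Mirg, at the far end of the series of maternal RNAs, had a probe set with a large difference and another with a small one. Its probe set 1457030_at read 829, 642, 1063 and 1007 with ascorbic acid and 56.8, 128, 165 and 61.6 without. The rise of 3.01 ± 0.28 log2, or 8.03-fold (SE; limma, adjusted p = 0.000683), ranked 1 of 27022 by size on the log2(signal + 16) scale. The size depends on the added constant, at 3.21 log2 with 1 added and 2.54 with 64 added. By the ratio of mean signals Meg3 1452906_at was ahead of 1457030_at, at 10.97 against 8.60. The other probe set, 1440097_at, was more intense on average over the 8 clones and read 691, 644, 655 and 757 with and 353, 345, 570 and 262 without. Its groups did not overlap, but the difference of 0.87 ± 0.18 log2 did not pass (SE; limma, adjusted p = 0.374). Leaving out clone 3 of the untreated group gave 1.07 log2, which passed (limma, adjusted p = 0.00576). With any other single clone left out it did not pass (limma, adjusted p 0.415 to 0.86).

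Separation of the groups was also counted without a model, on the deposited signals. Complete separation upward, with the lowest ascorbic acid clone above the highest of the other group, was seen in 12 of the 16 tested maternal probe sets, namely 7 of 11 for Meg3, 3 of 3 for Rian and 2 of 2 for Mirg. Over all tested probe sets such separation upward was found in 1.72% and downward in 1.69%. No member was separated downward. Suffixes _s_at and _x_at mark possible shared targets. All 3 tested maternal probe sets carrying these passed, as did 6 of the 13 others.

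**Figure D2:**
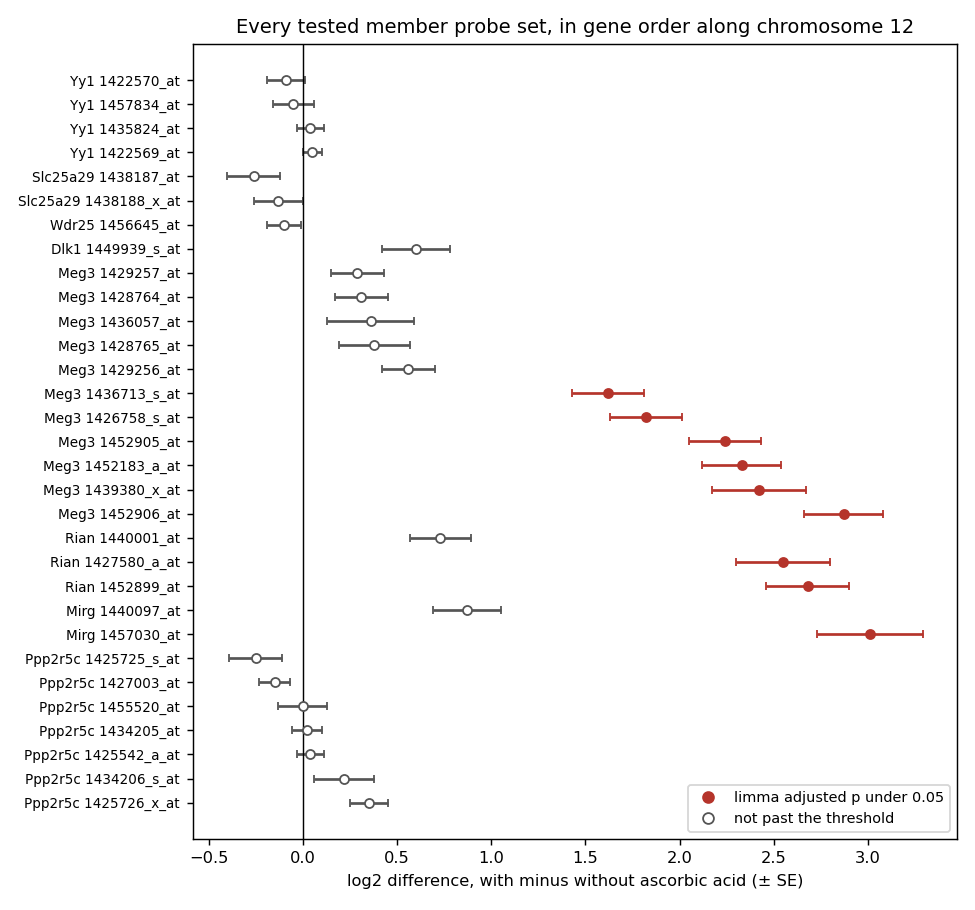
Log2 difference, with minus without ascorbic acid, of the 31 member probe sets above the dim limit, each with its SE (n = 4 clones per group), in gene order along chromosome 12. The 9 filled red points, all of Meg3, Rian and Mirg, passed the threshold and lie between 1.62 and 3.01, and the probe sets of the flanking genes lie between -0.26 and 0.35.

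The called maternal probe sets, 6 of the 9 being of Meg3, also varied together from clone to clone within a group. In the group without ascorbic acid, clone 3 was above its group mean in all 9 called probe sets and was the highest in 8 of them, while clone 4 was below the mean in all 9 and the lowest in 6. With ascorbic acid, clone 3 was above the group mean in all 9, and clones 1 and 2 were below it in all 9. Uncalled maternal probe sets did not all follow. Clone 3 was the lowest of its group on Meg3 1436057_at with ascorbic acid (202) and on Meg3 1429256_at without it (149.5). Without it, clone 3 was the highest on Rian 1440001_at (314) and Mirg 1440097_at (570). The mean log2 signal of the most intense probe sets of Meg3, Rian and Mirg was 10.92, 10.96, 11.29 and 11.24 in clones 1 to 4 with ascorbic acid. Without it that mean was 8.97, 9.18, 9.77 and 8.54, so the spread of this log2 mean was wider in that group (SD 0.51 against 0.19). In 2 called Meg3 probe sets the SD as a share of mean signal was instead larger with ascorbic acid. It was 32.8% with and 16.1% without for 1426758_s_at, and 30.8% and 27.9% for 1452183_a_at. In the other called probe sets that share was larger without ascorbic acid.

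Deviations from the group means over the 8 clones correlated at 0.84 between Meg3 and Rian, 0.80 between Meg3 and Mirg and 0.82 between Rian and Mirg. The probe sets of a clone share its array, so these values describe the clones and carry no test. The same measure was 0.17 between Meg3 and Dlk1, -0.09 between Rian and Dlk1 and -0.31 between Mirg and Dlk1. Between Ppp2r5c and these RNAs it was -0.13 to 0.26, and between Wdr25 and these RNAs it was -0.66, -0.64 and -0.85, also without a test. Among 13117 other genes, those whose deviations were most like the mean of the 3 RNAs were Atg7 (0.99), Notum (0.97), Pih1d1 (0.96), Caml and Acad12 (both 0.95), and none of these passed the test between groups (limma, log2 differences -0.02 to 0.15). The called probe set without a gene name, 1431094_at, read 384, 429, 613 and 516 with ascorbic acid and 87.2, 95.5, 143 and 86.0 without, and its deviations correlated at 0.85 with that mean.

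**Figure D3:**
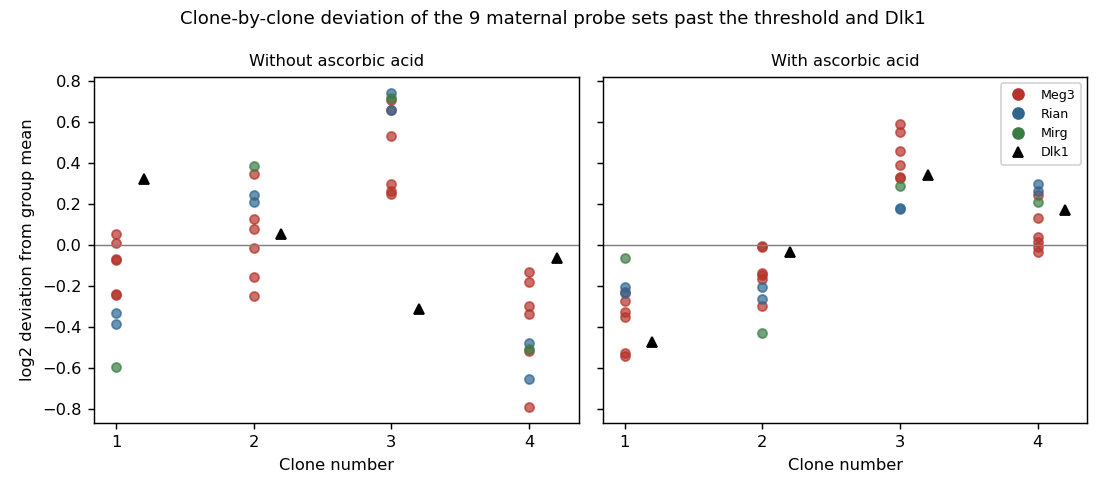
Deviation of log2 signal from the group mean, by clone number, for the 9 maternal probe sets past the threshold (circles, coloured by gene) and for Dlk1 1449939_s_at (black triangles). Clone 3 lies above 0 for all 9 maternal probe sets in both groups, and Dlk1 is the lowest in clone 3 without ascorbic acid and the highest in clone 3 with it.

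Dlk1, a transmembrane protein related to the Notch ligands and expressed from the paternal copy, had a smaller difference that did not pass. Its probe set 1449939_s_at read 318, 437, 571 and 505 with ascorbic acid and 366, 301, 230 and 277 without. Clone 1 with ascorbic acid lay below clone 1 without it, so the groups overlapped. The log2 difference was 0.60 ± 0.18 (SE) and did not pass (limma, adjusted p = 0.781, unadjusted p = 0.00568). In signal order the clones with ascorbic acid ran 3, 4, 2, 1 for Dlk1 and also for Meg3. Without ascorbic acid they ran 1, 2, 4, 3 for Dlk1 and 3, 2, 1, 4 for Meg3. The second Dlk1 probe set, 1442724_at, was below the dim limit and read 24.9 to 68.9 with and 37.3 to 52.5 without.

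Whether the maternal RNAs changed by another amount than their neighbours was tested on the log2 difference between 2 genes within each clone, using each gene's most intense probe set. Against Dlk1, the lead of Meg3 was 3.83 ± 0.15 log2 in the ascorbic acid group and 2.02 ± 0.75 in the other (SD, n = 4 clones each), larger by 1.81 (exact permutation test, two-sided, adjusted p = 0.0343 over 6 differences). For Rian the lead over Dlk1 was larger by 2.08 (exact permutation test, adjusted p = 0.0343). For Mirg it was larger by 0.27, with overlapping clones (exact permutation test, adjusted p = 0.486). Against Ppp2r5c the differences were 2.38 for Meg3, 2.64 for Rian and 0.83 for Mirg (exact permutation tests, adjusted p = 0.0343 each). The sizes depended on the probe sets that stood for a gene. With the mean of all probe sets of each gene, the values against Dlk1 were 1.12 for Meg3, 1.69 for Rian and 1.68 for Mirg, and those against Ppp2r5c were 1.35, 1.92 and 1.91 (exact permutation tests, adjusted p = 0.0286 each). These means took in probe sets below the dim limit, 1442724_at for Dlk1 and 1428055_at for Rian. The values against Dlk1 thus rest in part on a probe set too dim to test. With the most intense probe set that has no _s_at or _x_at suffix, the Mirg value against Dlk1 was 0.95 (exact permutation test, adjusted p = 0.0857). For Dlk1 that probe set was the dim and untested 1442724_at, while Mirg stayed on 1440097_at. This value therefore cannot serve as a check on the Dlk1 signal. The smallest p this design allows is 0.0286, and with any clone of the ascorbic acid group left out all 5 calls missed the threshold (exact permutation test, adjusted p = 0.0686 each).

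No probe set of the flanking genes passed. Of 14 tested probe sets 6 were higher and 8 lower with ascorbic acid, the median difference was -0.02 log2, and 0 passed in limma. Together with Dlk1 that made 0 of 15, with 2 at an unadjusted limma p under 0.05, where 5.55% of all tested probe sets lay. Among all tested probe sets 0.0481% passed, so 0 of 15 is near the share of the whole array. The median over all tested probe sets was -0.0105 log2.

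On the proximal side, Yy1, a zinc finger transcription factor, was nearly level across the clones. Its probe set 1422569_at read 4412, 4420, 4295 and 4258 with ascorbic acid and 4127, 4280, 4180 and 4196 without, a log2 difference of 0.05 ± 0.05 (SE). The largest difference among its other 3 probe sets was that of 1422570_at, at -0.09 ± 0.10 log2 (SE). It read 431, 375, 358.5 and 411 with and 411, 413, 388 and 470.5 without, and its groups overlapped. Wdr25, a WD repeat protein, read 333, 356, 352 and 361 with and 386, 378, 341 and 407 without, a log2 difference of -0.10 ± 0.09 (SE) with overlapping clones.

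Slc25a29, a mitochondrial carrier of basic amino acids, was tested on 2 of its 5 probe sets. The larger difference was that of 1438187_at, which read 466, 297, 333 and 424 with ascorbic acid and 405, 450, 473 and 487 without, -0.26 ± 0.14 log2 (SE; limma, adjusted p = 0.882). The most intense probe set, 1438188_x_at, read 350.2, 392, 356.5 and 529 with and 432, 396.5, 472 and 467 without, -0.13 ± 0.13 log2 (SE), and the groups overlapped in both. The 3 below the dim limit read 17.9 to 97.6 over all clones. Degs2, a sphingolipid desaturase and hydroxylase, was also below that limit, at 53.7, 73.7, 89.5 and 92.8 with and 99.6, 39.2, 88.9 and 115 without.

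On the distal side, Ppp2r5c, a regulatory subunit of protein phosphatase 2A, was read by 7 probe sets that did not move together. The most intense, 1425542_a_at, read 5051, 5787, 5596 and 5326 with ascorbic acid and 5668, 4926, 5394 and 5228 without, 0.04 ± 0.07 log2 (SE). Only 1425726_x_at had groups that did not overlap, by a narrow margin. It read 639, 518, 636 and 587 with and 479, 442, 512 and 418 without, 0.35 ± 0.10 log2 (SE; limma, adjusted p = 0.738). The probe set 1425725_s_at, tied by the annotation to the same expressed sequence tag, leaned the other way at -0.25 ± 0.14 log2 (SE), with 241, 210, 186 and 244 against 255, 290, 225 and 292.

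**Figure D4:**
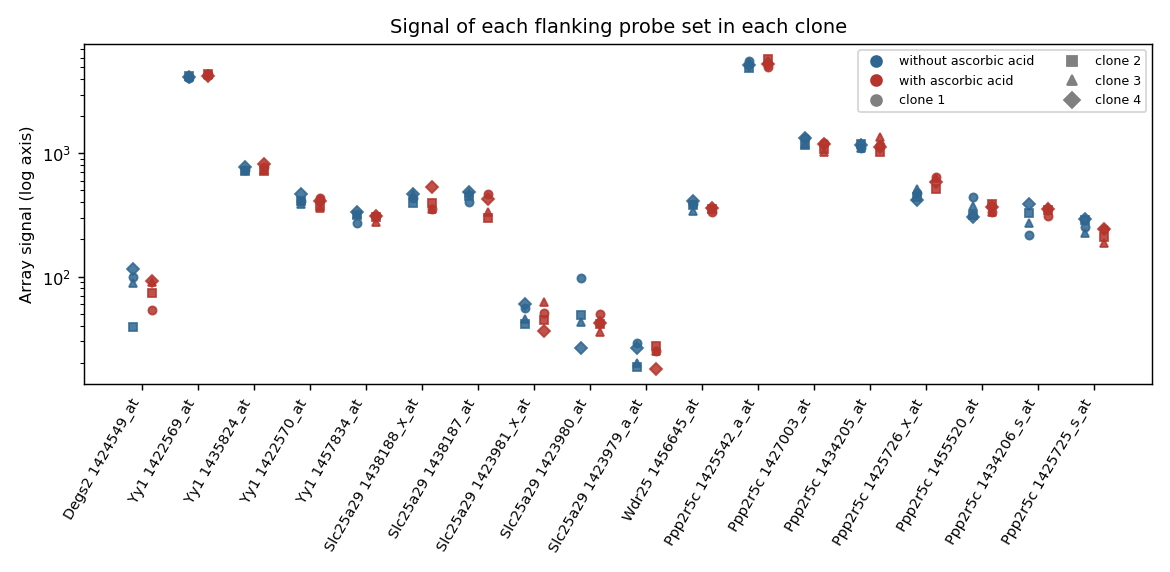
Array signal (log axis) of the 18 probe sets of the flanking genes in each clone, with clone numbers as symbols, clones without ascorbic acid in blue and with it in red. The groups overlap in all of them except Ppp2r5c 1425726_x_at, whose clones read 518 to 639 with and 418 to 512 without ascorbic acid.

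Beyond the members the domain was thinly covered. Dio3os, a noncoding RNA transcribed opposite to Dio3, read 324, 271, 157 and 278 with ascorbic acid and 141, 263, 234 and 253 without. Its groups overlapped, and the log2 difference of 0.19 ± 0.23 (SE) did not pass (limma, adjusted p = 0.937). The noncoding RNA 3110009F21Rik was below the dim limit, at 48.8 to 74.1 with and 40.5 to 66.9 without. Between the proximal members, Slc25a47 was at 0.10 ± 0.18 log2 (SE) and Gm33628 was below the limit. Wars, a tryptophan tRNA synthetase, was read by 4 probe sets at 0.01 to 0.20 log2, the most intense at 0.10 ± 0.11 and another at 0.20 ± 0.08 (SE; limma, unadjusted p = 0.0378, adjusted p = 0.881).

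The outer neighbours were read from the 10 next genes with a tested probe set on each side. On the proximal side 8 were higher and 2 lower, with a median of 0.04 log2, and 0 of 10 passed in limma (0 at an unadjusted p under 0.05). The smallest p values there were those of the actin regulator Evl (0.14 ± 0.08) and the cholesterol hydroxylase Cyp46a1 (-0.33 ± 0.25 log2, SE). On the distal side 5 were higher and 5 lower, and 0 of 10 passed in limma (0 at an unadjusted p under 0.05), with the chaperone Hsp90aa1 at -0.12 ± 0.08 and Zfp839 at 0.12 ± 0.09 log2 (SE). Along the chromosome, calls were found in Meg3, Rian and Mirg and in no measured neighbour, with Dlk1 next in size. Only 0.0481% of all tested probe sets passed, so the lack of calls in these neighbours marks no boundary.

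**Figure D5:**
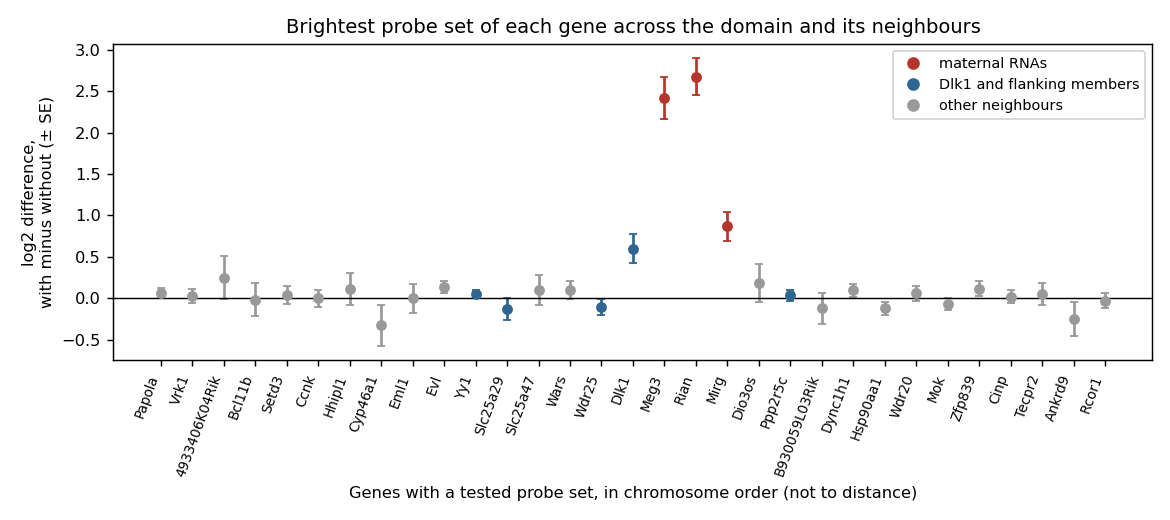
Log2 difference, with minus without ascorbic acid, and its SE for the most intense tested probe set of each gene, in chromosome order and not to distance, with maternal RNAs in red, other members in blue and other neighbours in grey. Rian (2.68), Meg3 (2.42) and Mirg (0.87) stand highest, followed by Dlk1 (0.60), and the other genes lie between -0.33 and 0.25.

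Genes known to set, protect or erase imprints showed no change that passed. Of 20 listed regulators 17 were tested, 10 were higher and 7 lower, with a median of 0.01 log2, and 0 passed in limma (3 at an unadjusted p under 0.05). Among all tested probe sets 0.0481% passed and 5.55% had an unadjusted limma p under 0.05. The 0 of 17 here, and among the Notch pathway genes below, is near that share of passes. The dioxygenase Tet1, which oxidises methylated cytosine, read 5260 to 6390 with and 4886 to 5437 without, 0.20 ± 0.07 log2 (SE; limma, adjusted p = 0.848). Smchd1, a chromatin protein that acts at imprinted genes, was at 0.23 ± 0.09 log2 (SE; limma, adjusted p = 0.87). Zfp57, a zinc finger protein that protects methylated imprints, leaned the other way, at 500.4 to 741 with and 589 to 783 without, -0.29 ± 0.13 log2 (SE; limma, unadjusted p = 0.0425, adjusted p = 0.882). Around Dlk1, 17 of 18 listed Notch pathway genes were tested, 10 higher and 7 lower, and 0 passed in limma (1 at an unadjusted p under 0.05). That gene was the Notch target Hes1, at -0.35 ± 0.12 log2 (SE; limma, adjusted p = 0.848), and the Notch-cleaving protease Adam10 was next at 0.15 ± 0.08 log2 (SE).

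Fibroblasts were both the source and the feeder cells of these clones, so their markers were read beside the maternal RNAs. Of 18 fibroblast or feeder markers 17 had a probe set and 14 were tested, of which 12 were lower and 2 higher with ascorbic acid (median -0.18 log2). None passed in limma (5 at an unadjusted p under 0.05). Over all tested probe sets 46.6% were higher, 0.0481% passed and 5.55% had an unadjusted limma p under 0.05. Of those 5 only the transcription factor Twist1 was higher, at 0.52 ± 0.16 log2 (SE). The others were Postn, a matrix protein, at -0.38 ± 0.10, and the collagen genes Col1a2 at -0.3 ± 0.12, Col3a1 at -0.34 ± 0.14 and Col5a1 at -0.24 ± 0.09 log2 (SE). Postn was separated downward, at 286 to 357 with and 389 to 440 without, as were 1.69% of all tested probe sets. Summed over the list, signal ranged from 31297 to 38687 in the ascorbic acid group and from 36946 to 38828 in the other, so the groups overlapped. No marker was at 0, and the lowest reading, of Dcn, was 13.8, but Dcn, Lum and Fap were below the dim limit and were not tested. The part of fibroblasts in the rise of the maternal RNAs was not tested. In such bulk RNA, fewer cells expressing a gene and less RNA per cell cannot be told apart.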

How the data were processed

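The authors deposited linear signal intensity, 1 value per probe set and array. GCOS is the tool listed in the submitters' processing notes. The sources used here do not state its algorithm, version or settings. Each array's mean after trimming 2% at each end was 500.0, and this scaling was kept. Array controls (64) were left out. Of the other probe sets 34945 had a single symbol, 932 several and 9160 none. Symbols of the 9 measured members matched a RefSeq table (GRCm38.p6) through Entrez identifiers.

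Signals were taken as log2(signal + 16), so fold changes of dim probe sets are understated. The dimmest 40%, by mean log2 value in the 8 clones (limit about 93.7 in signal), were set aside untested, which left 27022. Each was tested singly in limma 3.58.1 (R 4.3.3; lmFit, eBayes with trend, two-sided, Benjamini-Hochberg, threshold 0.05). Differences between genes used exact permutation over 70 assignments. Begain, another planned neighbour, had no probe set, which left 6 differences. The calculations were tested on simulated data. Drawings used matplotlib 3.10.9. The number of arrays limits the precision.

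The members and lists were chosen with earlier results of these data known. Per gene, the text gives the most intense probe set and that with the largest difference by clone and the others by range. From each list it gives the 2 smallest p. Genes of like pattern are the 5 with the highest correlation of deviations from group means. Alternatives covered scaling, pseudocount, dim filter, spread estimate, suffix class, gene averages, a clone-number block and leaving out each clone. A few probe sets, Zfp57, Col1a2, Col3a1 and Col5a1 are named outside this rule, after their values were seen.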

Additional observations from a re-analysis of the deposited data

Results flagged for a closer look

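Among 74 groups of 4 clones, one per member probe set and treatment, a clone far from the other 3 was found in 2, or 2.7%, where chance gives about 5%. Both were clone 3 of the group without ascorbic acid. Meg3 1452183_a_at read 1263 in that clone against 734 to 792 in the others, and Rian 1440001_at read 314 against 177 to 194. In each case the clone stood on the side of the ascorbic acid group.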

How the results depend on the processing

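All 9 called maternal probe sets kept their direction in each of the 19 alternatives on single probe sets that tested them. The number called was 8 with a pseudocount of 1 or a 60% filter, 6 without the intensity trend or without _s_at and _x_at probe sets, 3 of 3 genes when probe sets were averaged by gene, and 9 to 11 with a single clone left out. Without the trend 3 Meg3 probe sets missed the threshold (limma, adjusted p 0.0558 to 0.0981). No Dlk1 or flanking probe set was called under any of them. Same-numbered clones did not deviate together (correlations -0.152 to 0.016), and the fit with clone number as a replicate block called 9 maternal probe sets. For the differences between genes the block left only sign changes of 4 pairs, whose smallest p is 0.125, with values of 0.27 to 2.64.

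With a single clone left out, the differences ran 1.57 to 2.15 for Meg3 against Dlk1, 2.12 to 2.61 for Meg3 against Ppp2r5c, 1.84 to 2.40 for Rian against Dlk1, 2.48 to 2.85 for Rian against Ppp2r5c, 0.11 to 0.58 for Mirg against Dlk1 and 0.68 to 1.03 for Mirg against Ppp2r5c. With gene means Meg3 against Dlk1 was 1.12, Meg3 against Ppp2r5c 1.35, Mirg against Dlk1 1.68 and Mirg against Ppp2r5c 1.91 (exact permutation tests, adjusted p = 0.0286 each). The Dlk1 mean included 1442724_at, which was below the dim limit. Mirg against Dlk1 was 0.95 with unsuffixed probe sets (exact permutation test, adjusted p = 0.0857), where only the dim 1442724_at stood for Dlk1. Sign changes occurred only in uncalled Ppp2r5c probe sets near 0: with single clones left out 1434205_at ran from -0.049 to 0.075 and 1455520_at from -0.07 to 0.101, and the latter was at 0.009 under quantile normalization and 0.031 under median centring.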
